A study of Oryza sativa with 6 samples.

Results

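Gibberellins are diterpenoid growth hormones of plants, and the 9 rice genes described here encode the enzymes that build them. The genes were chosen by their annotation identifiers, with earlier results of these data known. All were found among the 94013 rows of the expression table. Anthers of Oryza sativa were compared between 3 wild-type and 3 dmd1 mutant libraries, all from plants aged 3 months and taken between the tetrad and early microspore stages. The labels do not give the cultivar or the nature of the dmd1 allele. No file used here ties these identifiers to names, so the gene symbols come from general knowledge, were not checked against an annotation, and no genome position is given. DMD1 transcript levels were not analysed here.

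In plastids, ent-copalyl diphosphate synthase (CPS) and ent-kaurene synthase (KS) turn the common precursor geranylgeranyl diphosphate into ent-kaurene. At the endoplasmic reticulum and plastid envelope the P450 enzymes ent-kaurene oxidase (KO) and ent-kaurenoic acid oxidase (KAO) oxidise it to the first gibberellin, and in the cytosol the gibberellin 20-oxidases (GA20ox) and 3-oxidases (GA3ox) finish the bioactive forms. In rice anthers gibberellin acts through the receptor GID1, the repressor SLR1 and the transcription factor GAMYB, and is needed for the tapetum, the layer that feeds the microspores and supplies material for the pollen wall. The 20-oxidases are a small family whose members differ in where they are expressed. GA20ox2 is the semidwarf gene SD1 of rice breeding.

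The library totals ran from 808227 to 1287424 FPKM (fragments scaled by transcript length and by the mapped fragments of the library). The number of fragments per library is unknown. Steps in the lowest values did not give a dependable relative depth, since only 6.50% and 8.76% of the low rows lay at the step in dmd1 libraries 1 and 3. The 13 tapetum markers were detected in every library, and their summed level was lower in every dmd1 library than in every wild-type library. Abundant genes such as C4, with means of 40248 FPKM in wild type and 3864 FPKM in dmd1, weigh most in that sum. The markers UDT1, TDR and MYB80 differed little (means of 15.7 and 16.7, 933 and 881, and 230 and 218 FPKM), and TIP2 was higher in dmd1. The genotypes parted along the first principal component, which held 53.9% of the variance. The second, with 26.7%, set wild-type library 2 and dmd1 library 1 at one end, wild-type libraries 1 and 3 and dmd1 library 3 at the other, and dmd1 library 2 between them. The labels give no batch that matches it.

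Among the tested genes the differences were largest in 3 genes of the last enzyme steps, and they went in both directions. GA20ox2, of the same steps, had a log2 change of -0.46 and was not called. CPS1 and GA3ox1 were too low to test. GA20ox3 was 3.02 times as high in dmd1 anthers as in wild type, and it was the only one of the 9 genes whose change passed the test. GA20ox1 and the 3-oxidase gene GA3ox2 had lower means in dmd1, at 0.33 and 0.27 times the wild-type mean, and their values did not overlap between genotypes, but neither passed the test. The genes of the early steps, KS1, KO2 and KAO, had log2 changes between -0.05 and 0.33, and none was called.

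Of the 9 genes, 7 reached 1 FPKM in at least 3 of the 6 libraries and were tested, and CPS1 and GA3ox1 did not. A gene was called when limma's Benjamini-Hochberg adjusted p, over all 25474 tested rows, was under 0.05 and the log2 change was at least 1 in either direction. Among the tested members 1 rose, none fell and 6 were not called (limma). At an unadjusted p under 0.05 the numbers were 1 higher and 2 lower, and limma without the trend and robust options also gave 1 call. Over all tested rows 6.71% were called, 3.16% as rises and 3.54% as falls. The genotypes did not overlap in 3 of the 7 genes, against 38.4% of all tested rows. The median log2 change was -0.05 over the 7 genes and 0.12 over all tested rows.

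**Figure D1:**
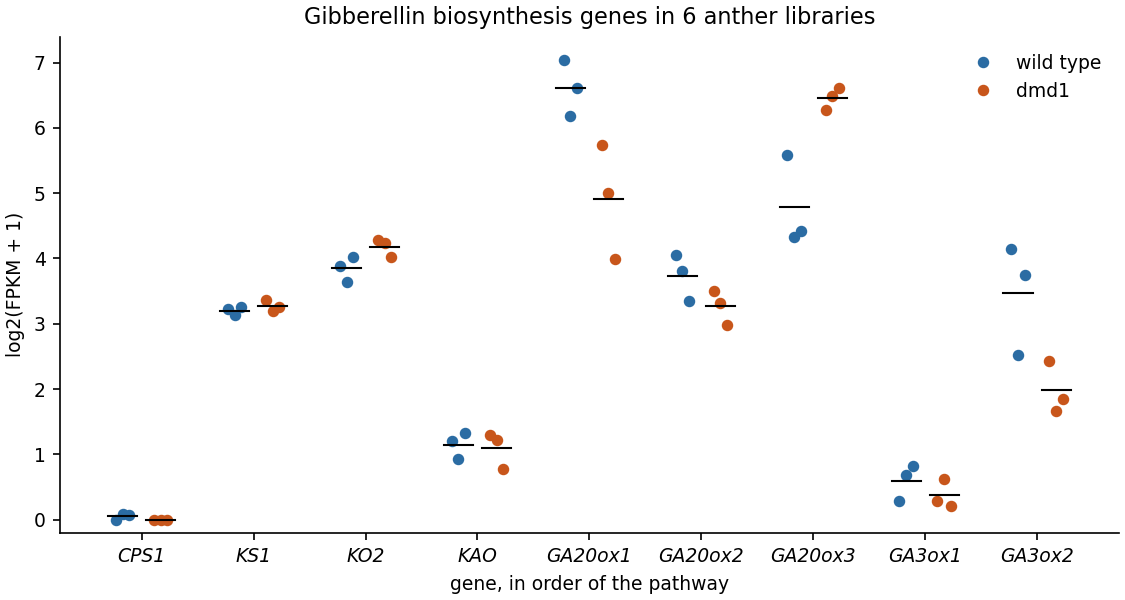
Level of each gene as log2(FPKM + 1), in pathway order, with 1 point per library and a black line at the mean of the 3 libraries of a genotype. GA20ox3 is higher in every dmd1 library than in every wild-type library, GA20ox1 and GA3ox2 are lower in every dmd1 library, and CPS1 lies at or near 0 in all 6.

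The early steps were weakly to moderately expressed. CPS1 (OS02G0278700), which catalyses the first committed step, was listed at 0 FPKM in wild-type library 1 and in all 3 dmd1 libraries, and at 0.063 and 0.05 FPKM in wild-type libraries 2 and 3. Its difference was not detectable at this depth (exact two-sided permutation p = 0.4, where 0.1 is the smallest possible). KS1 (OS04G0611800), the enzyme of the next step, was measured at 8.34, 7.75 and 8.57 FPKM in the wild-type libraries, while the dmd1 libraries gave 9.28, 8.15 and 8.58 FPKM. The genotypes overlapped, and KS1 had the smallest SE of the tested members. Its log2 change was 0.07 ± 0.12 (SE, limma adjusted p = 0.742), with a 95% interval from -0.22 to 0.36, and its sign turned with quantile and median-of-ratios scaling.

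KO2 (OS06G0570100), whose loss gives the dwarf mutant d35, was at 13.7, 11.4 and 15.3 FPKM across wild-type libraries 1 to 3, and dmd1 libraries 1 to 3 gave 18.5, 17.8 and 15.2 FPKM. The lowest dmd1 value lay just under the highest wild-type value, so the genotypes overlapped. KO2 differed by 0.33 ± 0.15 on the log2 scale (SE, limma adjusted p = 0.185), with a 95% interval from -0.03 to 0.69. KAO (OS06G0110000), the P450 enzyme that completes the first gibberellin, was read as 1.30, 0.907 and 1.50 FPKM in the wild-type libraries, against 1.46, 1.33 and 0.717 FPKM in those of dmd1. Its genotypes overlapped, with a difference of -0.05 ± 0.21 on the log2 scale (SE, limma adjusted p = 0.894) and a 95% interval from -0.56 to 0.46. The sign of KAO turned when libraries were scaled to equal totals. Rice has close relatives of KO2 and KS1, and how the authors' estimates shared fragments between such relatives is not given in the sources used here.

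GA20ox3 (OS07G0169700) was measured at 47.2, 19.2 and 20.4 FPKM in the wild-type libraries, while the dmd1 libraries gave 76.4, 88.9 and 97.1 FPKM. All dmd1 values exceeded all wild-type values, and wild-type library 1 stood above the other wild-type libraries. The means were 28.9 ± 15.8 and 87.5 ± 10.4 FPKM (SD, n = 3). On the log2 scale the change came to 1.68 ± 0.34 (SE), at a limma adjusted p = 0.0286, with a 95% interval from 0.85 to 2.50. The log2 change stayed between 1.45 and 2.08 in the fits that left out 1 library. The adjusted p there was under 0.05 only without wild-type library 1 (0.02), and was 0.0578 and 0.0913 after dropping wild-type libraries 2 and 3, and 0.0636, 0.0956 and 0.0743 after dropping dmd1 libraries 1, 2 and 3. The single call among the 9 genes therefore needed all libraries other than wild-type library 1. With both wild-type library 2 and dmd1 library 1 left out, GA20ox3 had a log2 change of 1.55 and an adjusted p = 0.0852.

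GA20ox1 (OS03G0856700) was at 130.8, 71.6 and 96.9 FPKM across wild-type libraries 1 to 3, and dmd1 libraries 1 to 3 gave 52.5, 31.2 and 15.0 FPKM. The genotypes did not overlap, though the 3 dmd1 libraries spread widely. The means were 99.8 ± 29.7 and 32.9 ± 18.8 FPKM (SD, n = 3). On the log2 scale the difference came to -1.70 ± 0.45 (SE), at a limma adjusted p = 0.0576, with a 95% interval from -2.79 to -0.60. GA20ox1 crossed the threshold when dmd1 library 1 was left out (-2.11, adjusted p = 0.0382), and with equal totals (-1.50, 0.0481), quantile normalization (-1.67, 0.0455) and median-of-ratios scaling (-1.82, 0.037). It was also called with library weights (-1.78, limma adjusted p = 0.00226) and with wild-type library 2 and dmd1 library 1 both left out (-2.32). Wild-type library 2 and dmd1 library 1 lay together at one end of the second principal component. Between them the log2 difference was -0.44, and over the other 4 libraries, which include the intermediate dmd1 library 2, it was -2.32. The first value compares 1 library with 1 and has no spread, and this grouping was made with the component known.

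GA20ox2 (OS01G0883800) was read as 15.5, 12.9 and 9.17 FPKM in the wild-type libraries, against 10.3, 8.95 and 6.92 FPKM in those of dmd1. The genotypes overlapped, and the log2 change of -0.46 ± 0.23 (SE) was not called (limma adjusted p = 0.222, 95% interval from -1.01 to 0.08). It was not called in any of the 18 other settings, in which the log2 change ran from -0.66 to -0.28.

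The summed level of these 20-oxidase genes overlapped between genotypes, while the shares of GA20ox1 and GA20ox3 did not. The summed FPKM of GA20ox1, GA20ox2 and GA20ox3 averaged 141 ± 46.7 in wild type and 129 ± 10.1 in dmd1 (SD, n = 3). GA20ox1 made up 67.6%, 69.0% and 76.6% of the sum in wild-type libraries 1, 2 and 3, and 37.7%, 24.2% and 12.6% in dmd1 libraries 1, 2 and 3. GA20ox3 made up 24.4%, 18.5% and 16.1% in wild type and 54.9%, 68.9% and 81.6% in dmd1. Among these 3 genes GA20ox1 was thus the most abundant in every wild-type library, and GA20ox3 in every dmd1 library. The ratio of GA20ox3 to GA20ox1 was 0.361, 0.268 and 0.211 in wild type and 1.45, 2.85 and 6.49 in dmd1, a quantity that scaling of whole libraries leaves as it is. These shares and ratios are descriptions and were given no test.

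**Figure D2:**
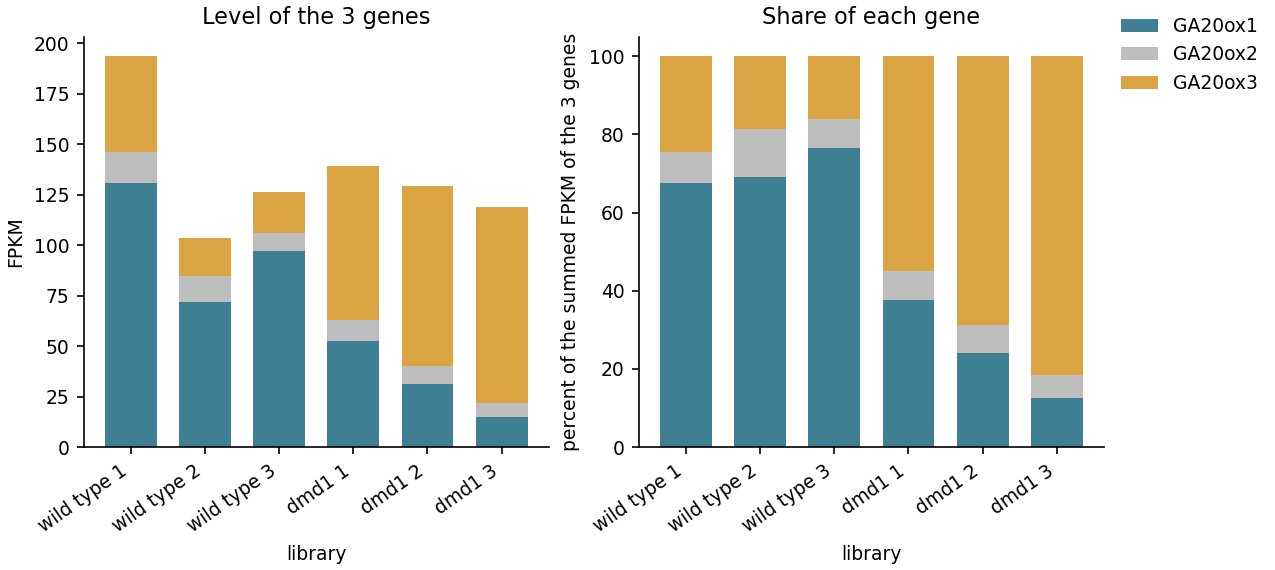
GA20ox1, GA20ox2 and GA20ox3 in each library, as stacked FPKM on the left and as percent of their sum on the right. GA20ox1 holds 67.6% to 76.6% of the sum in wild-type libraries, and GA20ox3 holds 54.9% to 81.6% in dmd1 libraries.

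GA3ox2 (OS01G0177400), known as the dwarf gene D18, encodes the 3-oxidase that makes bioactive gibberellin in vegetative organs of rice. It was measured at 16.7, 4.76 and 12.5 FPKM in the wild-type libraries, while the dmd1 libraries gave 4.41, 2.17 and 2.61 FPKM. The genotypes did not overlap, but the lowest wild-type value and the highest dmd1 value were close. The means were 11.3 ± 6.06 and 3.06 ± 1.19 FPKM (SD, n = 3). On the log2 scale the difference came to -1.49 ± 0.44 (SE), at a limma adjusted p = 0.0735, with a 95% interval from -2.56 to -0.43. Between wild-type library 2 and dmd1 library 1 (1 library against 1, with no spread) the log2 difference was -0.09, while over the other 4 libraries it was -2.19. With both of those libraries left out the gene was called (limma adjusted p = 0.013), and it was called without wild-type library 2 alone (log2 change -1.97, limma adjusted p = 0.0191).

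GA3ox1 (OS05G0178100), the second rice 3-oxidase, known mainly from reproductive organs, was at 0.216, 0.605 and 0.769 FPKM across wild-type libraries 1 to 3, and dmd1 libraries 1 to 3 gave 0.222, 0.541 and 0.152 FPKM. It stayed under 1 FPKM in all 6 libraries, the genotypes overlapped, and no difference was detectable (exact two-sided permutation p = 0.3). GA3ox2 made up 88.7% to 98.7% of the summed 3-oxidase FPKM in wild type and 80.0% to 95.2% in dmd1. The summed 3-oxidase level averaged 11.8 ± 5.90 FPKM in wild type and 3.36 ± 1.10 FPKM in dmd1 (SD, n = 3), most of it from GA3ox2 in every library.

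FPKM is scaled by transcript length, which allows a rough order of levels within a genotype. How fragments were shared between related genes is not given, and it could shift that order. In wild type GA20ox1 stood first, with a mean above that of 94.2% of the tested rows, and GA20ox3 came next, above 79.1%. KO2, GA20ox2, GA3ox2 and KS1 followed with means of 13.5, 12.5, 11.3 and 8.22 FPKM, and each overlapped the next in this order. KAO, GA3ox1 and CPS1 came last, at 1.23, 0.53 and 0.0377 FPKM, each below the range of the gene before it. In dmd1 the order was GA20ox3, GA20ox1, KO2, GA20ox2, KS1, GA3ox2, KAO, GA3ox1 and CPS1. There GA20ox1 overlapped KO2, and GA20ox2 overlapped KS1. The ranges of GA20ox3 and GA20ox1 did not overlap in either genotype.

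Genes that remove or divert gibberellin were mostly weakly expressed. Of 11 genes listed for inactivation or 13-hydroxylation, 2 were tested and none was called (limma, with none at an unadjusted p under 0.05 and none without the trend and robust options). The 9 untested genes stayed under 1 FPKM in every library, among them the P450 gene EUI1, and 1 of them was at 0 throughout. GA2ox6, a 2-oxidase that inactivates gibberellin, was read as 4.58, 9.89 and 4.45 FPKM in the wild-type libraries, against 4.58, 4.29 and 1.82 FPKM in those of dmd1. The genotypes overlapped, and the log2 change was -0.66 ± 0.38 (SE, limma adjusted p = 0.286). GA2ox3, another 2-oxidase, averaged 2.00 ± 0.338 and 1.96 ± 1.09 FPKM (SD, n = 3) and overlapped as well. The summed level of the 11 genes was 8.12 to 14.1 FPKM in wild type and 4.96 to 9.27 FPKM in dmd1. The summed level of GA20ox1, GA20ox2 and GA20ox3 was 104 to 194 FPKM and 119 to 139 FPKM in the same libraries.

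Other diterpenes of rice share the gibberellin precursor. The diterpene phytoalexins are antimicrobial compounds made by sister enzymes of CPS, KS and KO. Of 17 genes listed for that precursor and for the phytoalexins, 4 were tested, 1 rose, none fell and 3 were not called. Over all tested rows 3.16% rose and 3.54% fell. The 13 untested genes, which include the synthases CPS2, CPS4 and KSL4, stayed under 1 FPKM everywhere. GGPPS1 (OS07G0580900), which makes geranylgeranyl diphosphate, was measured at 31.0, 25.0 and 23.9 FPKM in the wild-type libraries, while the dmd1 libraries gave 46.1, 49.3 and 63.0 FPKM. It did not overlap between genotypes and passed the adjusted p but not the fold minimum, with a difference of 0.96 ± 0.17 on the log2 scale (SE, limma adjusted p = 0.0196). GGPPS1 reached both limits with equal totals (log2 change 1.16) and when dmd1 library 1 was left out (1.05), and missed the adjusted p after dropping wild-type library 1 or 3 or dmd1 library 2 (0.0502, 0.0722 and 0.0711). Of all tested rows 13% passed the adjusted p alone. CYP76M8 (OS02G0569400), a P450 enzyme of phytoalexin synthesis, rose in dmd1, where it averaged 229 ± 65.7 FPKM against 103 ± 17.7 FPKM in wild type (SD, n = 3), by 1.13 ± 0.23 on the log2 scale (SE, limma adjusted p = 0.0298). CYP76M8 missed the threshold when any of 4 libraries was left out. The adjusted p was 0.105 and 0.0973 after dropping wild-type libraries 1 and 3, and 0.0612 and 0.0782 after dropping dmd1 libraries 1 and 2. KSL10, a synthase of the oryzalexin branch, was at 2.03, 7.08 and 1.77 FPKM across wild-type libraries 1 to 3, and dmd1 libraries 1 to 3 gave 0.474, 0.947 and 0.278 FPKM. It passed the filter through the wild-type libraries alone, and its log2 difference of -1.40 ± 0.44 was not called (SE, limma adjusted p = 0.0833), though it was with equal totals (adjusted p = 0.0375) and quantile normalization (0.0452). CYP76M7, a close relative of CYP76M8, averaged 2.07 and 0.945 FPKM and was not called (limma adjusted p = 0.211). Fragments of these relatives could be divided between them in the authors' estimates, so the values of both are uncertain.

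**Figure D3:**
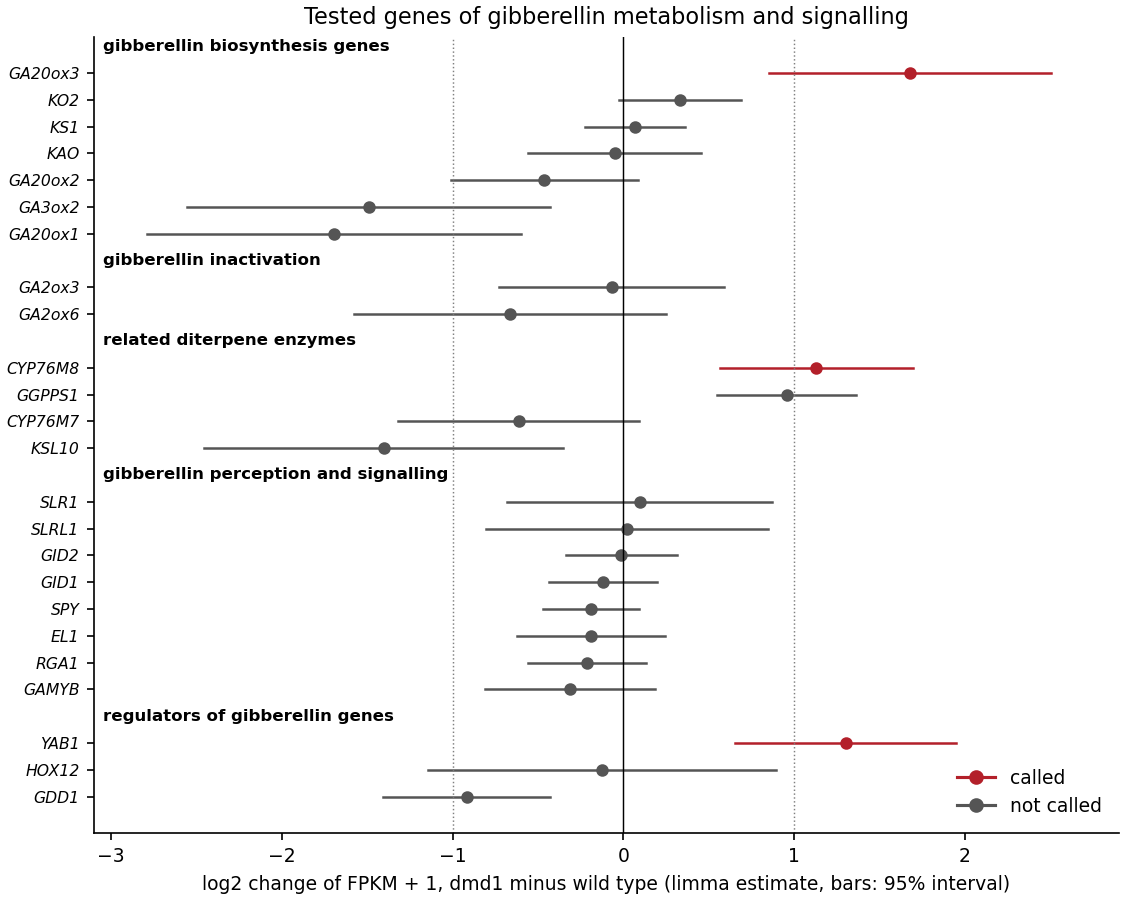
Log2 change of FPKM + 1, dmd1 minus wild type, for each tested gene of the pathway and of 4 related lists, with limma's 95% interval. Dotted lines mark the fold minimum of 1. GA20ox3, CYP76M8 and YAB1 are called, and the 8 genes of perception and signalling all lie between -0.31 and 0.09.

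The genes that perceive gibberellin showed no call. Of 9 listed genes of perception and signalling, 8 were tested and none was called (limma, with none at an unadjusted p under 0.05 and none without the trend and robust options), and their median log2 change was -0.16. GAMYB averaged 79.1 ± 16.6 and 63.2 ± 11.0 FPKM (SD, n = 3), with a difference of -0.31 ± 0.21 on the log2 scale (SE, limma adjusted p = 0.352). SLR1 averaged 115 and 120 FPKM, and GID1 averaged 33.4 and 30.7 FPKM. SPY, an O-linked sugar transferase that restrains the response, the kinase gene EL1 and the G-protein subunit gene RGA1 had log2 changes of -0.19, -0.19 and -0.22. The signs of SPY and EL1 turned with equal totals. SLR1 was named after its values were seen.

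Of 5 regulators listed as acting on gibberellin genes in rice, 3 were tested, 1 rose and 1 more passed the adjusted p alone. Over all tested rows 3.16% rose and 13% passed the adjusted p. YAB1 (OS07G0160100), a YABBY factor known to bind the GA3ox2 promoter in rice, was read as 0.8, 0.769 and 0.409 FPKM in the wild-type libraries, against 4.71, 2.92 and 2.01 FPKM in those of dmd1. It passed the filter through the dmd1 libraries alone, and its log2 change was 1.30 ± 0.27 (SE, limma adjusted p = 0.0294). YAB1 was no longer called after dropping wild-type library 1, 2 or 3 (adjusted p of 0.0879, 0.0534 and 0.0955) or dmd1 library 1 or 2 (0.0556 and 0.0933), nor with a pseudocount of 5, where the log2 change was 0.52. GDD1 (OS09G0114500), a kinesin-like protein known to bind the KO2 promoter, was measured at 88.7, 129 and 81.0 FPKM in the wild-type libraries, while the dmd1 libraries gave 57.2, 46.0 and 50.9 FPKM. It did not overlap and passed the adjusted p but not the fold minimum (log2 change -0.92 ± 0.20, limma adjusted p = 0.0354). With median-of-ratios scaling GDD1 reached both limits (-1.04, adjusted p = 0.0127). With 1 library left out GDD1 kept an adjusted p under 0.05 only without wild-type library 2 (0.0348), and ran up to 0.124 without dmd1 library 2. HOX12, a homeodomain factor that activates EUI1, averaged 24.4 and 20.1 FPKM and overlapped. The knotted-type genes OSH1 and OSH15 were untested and stayed under 1 FPKM.

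Among markers of the cell types in an anther, most of the calls were in the tapetum list. Of 13 tapetum markers, all tested, 7 fell, 1 rose and 5 were not called. Over all tested rows 3.54% fell and 3.16% rose. Of the markers not called, UDT1, TDR and MYB80 had log2 changes of 0.08, -0.07 and -0.07, and PTC1 and C6 had -1.55 and -6.39. The median log2 change of the 13 markers was -2.21. Their summed level was 57505 to 98744 FPKM in wild type and 6510 to 16751 FPKM in dmd1. None of them was at 0 in any library. Leaving out wild-type library 1 or 3 reduced the 7 falls to 1 or 3, and leaving out dmd1 library 2 reduced them to 2. The fall included CYP704B2 (log2 change -2.91), an enzyme of pollen wall lipids, and the rise was in TIP2 (1.79), an early tapetal factor. Of 7 markers of green tissue, all tested, 1 fell and 6 were not called. The fall was in LHCB_a, which was called in only 2 of the 6 fits with 1 library left out. The summed level of the 7 markers was 187 to 348 FPKM in wild type and 118 to 170 FPKM in dmd1. Among wild-type libraries the sum was lowest in library 2, as were GA3ox2, KS1, KO2, KAO, GA20ox1 and GA20ox3. The sum was highest in wild-type library 3 and dmd1 library 3, and GA3ox2 in wild-type library 1 and dmd1 library 1. Of 8 meiocyte markers, 6 were tested and none was called (limma, with 2 higher at an unadjusted p under 0.05, and none without the trend and robust options), and REC8 and HEI10 passed the adjusted p alone with log2 changes of 0.87 and 0.76. REC8 was called with equal totals (1.04, adjusted p = 0.0188) and with a pseudocount of 0.1 (1.02, adjusted p = 0.0153). With 1 library left out the adjusted p of REC8 and HEI10 ran up to 0.0735 and 0.0889, both without dmd1 library 2. The summed level of the 8 markers was 48.1 to 64.5 FPKM in wild type and 58.9 to 64.8 FPKM in dmd1. Of 3 late pollen markers 1 was tested, and it fell (UGP2, log2 change -1.10, limma adjusted p = 0.0341), while WX and EXPB10 stayed at or below 0.194 FPKM. UGP2 was read as 4.32, 3.28 and 2.06 FPKM in the wild-type libraries, against 1.17, 0.839 and 0.759 FPKM in those of dmd1. It passed the filter through the wild-type libraries, where it was high. The call held in only 1 of the 6 fits with 1 library left out, and was lost with no filter (adjusted p = 0.0519), with equal totals (log2 change -0.98) or with a pseudocount of 5 (-0.46). The part of these markers in the differences of GA20ox1, GA20ox3 and GA3ox2 was not tested. In whole anthers fewer cells of a type and less RNA per cell cannot be told apart.

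Likeness of profiles was measured as the root mean square difference of log2(FPKM + 1) over the 6 libraries, after each gene was centred on its own mean. The candidates were the 44 tested genes of the other lists. GA20ox3 was nearest to TIP2 (0.47) and GGPPS1 (0.47), both higher in every dmd1 library. GA20ox1 was nearest to the tapetum genes RAFTIN1 (0.36) and CYP703A3 (0.40). GA3ox2 was nearest to RAFTIN1 (0.36) and to LHCB_a (OS01G0600900, 0.43), a chlorophyll-binding protein gene of the green tissue list. For the members that differed little, the nearest genes were likewise level ones, such as GID1 for KS1 (0.12) and KAO (0.18), UDT1 for KO2 (0.21) and TDR for GA20ox2 (0.24). These distances hold both the genotype difference and the spread of libraries within a genotype. GA20ox3 and TIP2 had similar log2 changes (1.68 and 1.79), so most of the distance between them was spread within genotypes. The distances are given with no test.

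**Figure D4:**
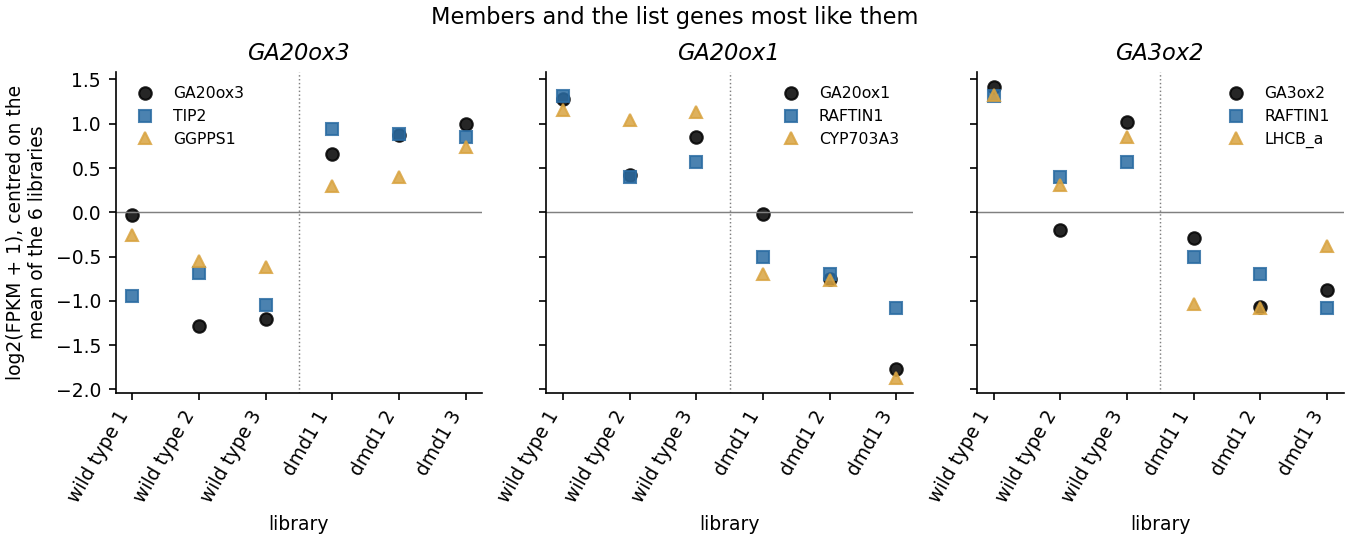
Centred log2(FPKM + 1) of GA20ox3, GA20ox1 and GA3ox2 in the 6 libraries, each with the 2 list genes nearest to it. GA20ox3 and TIP2 are above 0 in the 3 dmd1 libraries, and GA3ox2 lies below 0 in wild-type library 2, unlike RAFTIN1 and LHCB_a.

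GA20ox3, GA20ox1 and GA3ox2 kept their direction in every other setting tried, but not their side of the threshold. Over 18 other settings the log2 change of GA20ox3 ran from 1.45 to 2.08, with 11 calls. That of GA20ox1 ran from -2.32 to -1.24, with 6 calls, and that of GA3ox2 from -2.19 to -0.95, with 4 calls. KS1, KO2, KAO and GA20ox2 were never called.

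**Figure D5:**
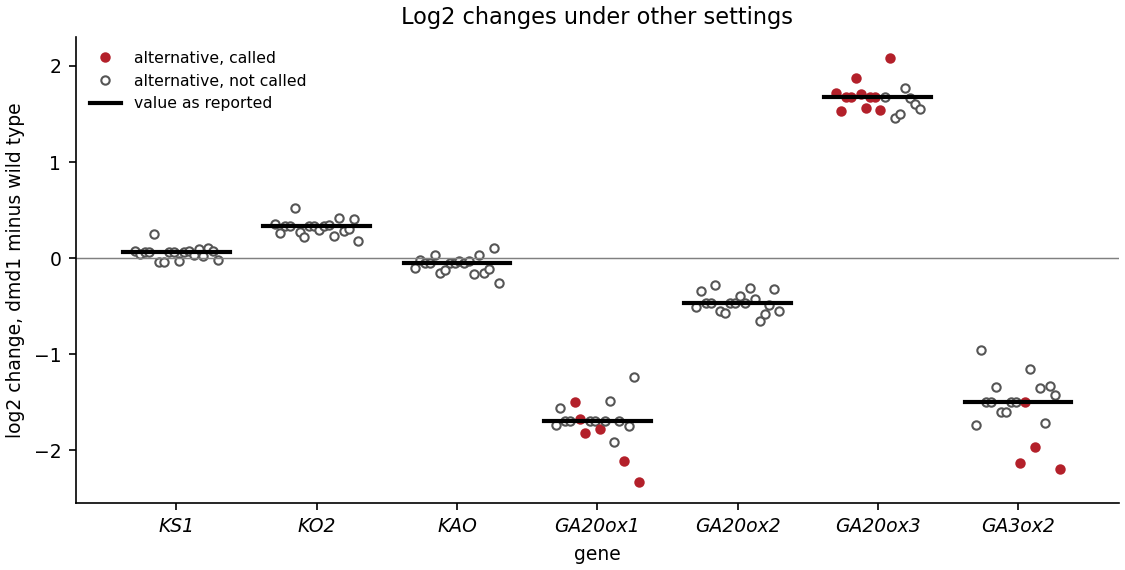
Log2 change of the 7 tested members under 18 other settings (points, filled where the gene was called), with the value as reported as a black line. GA20ox3 stays between 1.45 and 2.08 and GA20ox1 between -2.32 and -1.24, while KS1 and KAO lie on both sides of 0.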

How the data were processed

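The authors deposited FPKM values, 1 column per library, for 3 wild-type and 3 dmd1 anther libraries. The submitters' processing notes name fastp, HISAT, RSEM and the build IRGSP-1.0. The annotation, strand setting and versions are not given in the sources used. No count model was used, since FPKM values are not counts, and the fragment depth is unknown. Rows with at least 1 FPKM in at least 3 libraries (25474) were transformed to log2(FPKM + 1), which understates changes of low genes, and fitted with limma 3.58.1 in R 4.3.3 (eBayes with trend and robust options, no replicate block), with Benjamini-Hochberg adjustment. Intervals are limma's 95% intervals. In data simulated on these rows for this comparison, 39 of 67 rows changed by 1.5 log2 units were called, 48 of 67 changed by 2 and 62 of 66 changed by 3. Of the 156 calls in all, 7 fell on unchanged rows. Only rows with a wild-type mean above 3 on the log2 scale were changed, and far fewer than the 1709 rows called in the real data. The shares recovered therefore do not give the power of the real comparison, least of all for low genes such as KAO.

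The members and the other gene lists were chosen with earlier results of these data known. Named were all members, up to 4 tested genes with the smallest p from each pathway list, up to 2 from each marker list, and the 2 genes nearest in profile to each member. Any further gene was named with its values known. The design text calls the 3 libraries of a genotype biological replicates. None of the list identifiers was found in the RefSeq gene table, so no sequence is shown. Alternatives covered the pseudocount, filter, scaling, spread model, a replicate block, weighting of libraries, and left-out libraries.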

Additional observations from a re-analysis of the deposited data

How the results depend on the processing

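The number of members called lower was 0 as reported, 1 with equal totals, quantile normalization, median-of-ratios scaling or the replicate block, and 2 with library weights or when wild-type library 2 and dmd1 library 1 were both left out. The number called higher was 1 as reported, and 0 with the replicate block and without those 2 libraries. With 1 library left out, both numbers ran from 0 to 1. Of all tested rows 1709 were called as reported, 997 with a pseudocount of 5, 2672 with library weights, and 671 to 1605 with 1 library left out (the fewest without dmd1 library 2, then 680 and 934 after dropping wild-type libraries 1 and 3). Fits with fewer libraries have fewer residual degrees of freedom. The library weights were 9.13 for dmd1 library 2 and at most 1.49 for any other, and their estimation stopped before it reached its convergence tolerance. The cause of these shifts was not tested.

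The replicate numbers were not taken to pair libraries: deviations of same-numbered libraries correlated at -0.346, -0.0123 and 0.346. With the replicate block GA20ox3 missed the threshold (1.68 on the log2 scale, limma adjusted p = 0.0629), and GA3ox2 was called (-1.49, 0.0454).

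Equal totals raised the median log2 change of all tested rows from 0.12 to 0.29, and median-of-ratios scaling lowered it to 0.02. The calls were then 1491 higher and 878 lower with equal totals and 677 higher and 1196 lower with median-of-ratios scaling, against 806 and 903. Each gene whose sign turned had a reported log2 change between -0.19 and 0.08. With equal totals the log2 changes were 0.0346 for KAO, 0.0678 for GA2ox3, 0.0092 for SPY, 0.0117 for EL1, 0.0627 for HOX12, 0.0765 for GID1, 0.19 for GID2, 0.131 for TDR and 0.133 for MYB80. With quantile normalization they were -0.0365 for KS1, 0.071 for GID2, 0.378 for TDR and 0.0122 for MYB80. With median-of-ratios scaling they were -0.0406 for KS1 and -0.0387 for UDT1. With library weights they were -0.0283 for KS1, 0.492 for GA2ox3, 0.0508 for EL1, 0.0029 for TDR and 0.12 for MYB80. With both of those libraries left out they were -0.0141 for KS1, 0.155 for GA2ox3 and 0.0996 for GID2. With 1 library left out the ranges were -0.16 to 0.11 for KAO, -0.354 to 0.0817 for GA2ox3, -0.0966 to 0.0473 for GID2, -0.214 to 0.0351 for TDR, -0.51 to 0.33 for HOX12, -0.0225 to 0.139 for UDT1 and -0.19 to 0.0074 for MYB80.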
